A study of Sus scrofa with 24 samples.

Results

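Solute carriers are the membrane proteins, numbered in families under the symbol SLC or SLCO, that move sugars, amino acids, bile acids, metals, ions and other small solutes across cell and organelle membranes. They were taken as the probes of a pig expression array whose gene symbol starts with SLC and a digit or with SLCO, whether that symbol came from the probe's gene name, its accession or its description. This gave 189 of the 5537 genes that could be named, with 358 of the 43603 probes. The counts include 3 genes with 4 probes, SLC9A3R1, SLC9A3R2 and SLC2A4RG, classed as adaptor proteins that bear a carrier symbol. Liver RNA of 24 pigs of 115 kg body weight was hybridised, 1 array to a pig. Residual feed intake (RFI) is what an animal eats above the amount foreseen from its growth and maintenance. Low RFI pigs with free access to feed (8), high RFI pigs with free access (8) and high RFI pigs held to what low RFI pigs eat (8) were compared. The labels give no age, sex or litter, and low and high RFI pigs differ as strains in whatever else sets the strains apart. The p-values measure the spread between these pigs.

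The liver takes up bile acids, organic cations, glucose and amino acids from the portal blood through carriers of the sinusoidal membrane, and carriers also return glucose and bile acids. Mitochondrial carriers of the SLC25 family exchange adenine nucleotides, phosphate and metabolic intermediates across the inner membrane. Among metal carriers, the SLC39 and SLC31 families bring zinc, manganese and copper into the cytosol, and the SLC30 family moves zinc and manganese out of it.

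The probes on which the results turn were printed from the deposited array annotation, 5′ to 3′, to show what was measured. SLC2A4 encodes the insulin-responsive glucose carrier GLUT4 of muscle and fat. The first SLC2A4 probe is shown by its bases 1 to 30 only, with its longest run of A and G in capitals.
SLC2A4 A_72_P440846: tttGAAAAAGAAGGGGcgggaagaagaaac
SLC2A4 A_72_P448551: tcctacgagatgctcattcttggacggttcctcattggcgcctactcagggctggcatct

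Of the first SLC2A4 probe, 43 of 60 bases were A or G, against a median of 30 over all probes, and 0.417% of the probes held as many. Its longest run of A and G was 13 bases, and 2.49% of the probes held a run as long. No run of more than 6 bases was shared between any of the 3 SLC2A4 probes. The pairs of probes of SLC7A9 and SLC26A11 shared runs of at most 5 and 8 bases. SLC7A9 encodes the light chain of the cystine and dibasic amino acid carrier, and SLC26A11 a sodium-independent sulfate carrier.
SLC7A9 A_72_P088796: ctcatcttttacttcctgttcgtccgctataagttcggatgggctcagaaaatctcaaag
SLC7A9 A_72_P538288: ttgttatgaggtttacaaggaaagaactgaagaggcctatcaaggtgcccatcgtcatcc
SLC26A11 A_72_P286019: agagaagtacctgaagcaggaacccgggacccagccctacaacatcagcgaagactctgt
SLC26A11 A_72_P399683: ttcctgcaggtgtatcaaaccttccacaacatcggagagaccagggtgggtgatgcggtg

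Levels are log2 values of the scanner's processed signal relative to the array's 75th percentile, which is set to 0, and differences are differences of group means on that log2 scale. Probes had to stand well above background on 6 or more of 8 arrays in some group to be kept. This held for 273 of the 358 solute carrier probes (76.3%) and for 29665 of the 43603 probes in all (68%). The kept probes covered 149 genes, 133 of which had a probe well above background on all 24 arrays. Another 40 genes had no kept probe, and for 13 of them no probe stood well above background on any array. Among these 13 were SLC5A2 and SLC6A19, the glucose and neutral amino acid carriers of the kidney tubule, SLC12A1 of the loop of Henle and SLC30A8 of the pancreatic islet. The 13 also held SLC25A38, from the list of textbook liver carriers, and SLC16A3, SLC1A3 and SLC35E4. Conversely, SLC5A1 of the intestine and SLC45A2 of the melanosome membrane had a probe well above background on all 24 arrays. Detection therefore did not follow the organ a carrier is known from. The share of spots well above background ran from 63.2% to 72.7% per array. Slide 3 had the lowest mean of the 6 slides, at 63.9%. Hepatocyte markers were high throughout, with a mean level over 8 genes between 8.67 and 8.93 on every array. In such bulk RNA, fewer cells of a type and less RNA per cell cannot be told apart.

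Few solute carriers differed between the groups. Differences were tested with limma over all 29665 kept probes, and the threshold was a Benjamini-Hochberg adjusted p below 0.05. In the comparison of high with low RFI pigs at free intake (high minus low), 0 of 273 solute carrier probes passed, against 0.162% of all kept probes, with 0.0809% in each direction. At an unadjusted p below 0.05, 19 solute carrier probes lay above 0 and 9 below (10.3% in all), against 5.17% and 4.47% of all kept probes (9.64% in all). In the feeding comparison (restricted minus high), 0 passed among the solute carriers and 0.00% among all probes. Unadjusted, 4 lay above 0 and 7 below (4.03% in all), against 2.54% and 2.83% of all probes (5.37% in all). In the comparison at one feeding level (restricted high minus low), 1 solute carrier probe passed (0.366%), above 0, against 0.229% of all probes, of which 0.125% were above and 0.105% below 0. Unadjusted, 17 lay above 0 and 23 below (14.7% in all), against 6.20% and 6.59% of all probes (12.8% in all). With both high RFI groups set against low RFI, 1 solute carrier probe passed, above 0, against 0.553% of all probes, of which 0.293% were above and 0.260% below 0. Unadjusted, 21 lay above 0 and 20 below (15.0% in all), against 6.47% and 6.34% of all probes (12.8% in all). In the F test over the 3 groups 1 passed too, against 0.212% of all probes. All these shares of solute carriers lie near those of all probes. The comparisons with low RFI share the low RFI arrays, and those with high RFI share the high RFI arrays.

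Taking the brightest probe of each gene, the median difference over the 149 solute carrier genes was 0.0020 for high minus low, -0.013 for restricted minus high and -0.0071 for restricted high minus low RFI. Over the 4512 named genes it was -0.011, -0.0044 and -0.0094. In high minus low, 75 solute carrier genes lay above 0 and 74 below. In restricted minus high, 64 lay above 0 and 85 below. The sugar carriers had the highest class median in restricted high minus low RFI, at 0.20, with 9 of 12 genes above 0. The carriers of inorganic ions had 16 of 24 genes below 0 there, with a median of -0.040. The classes are of unequal size, and no class was tested as a group.

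**Figure D1:**
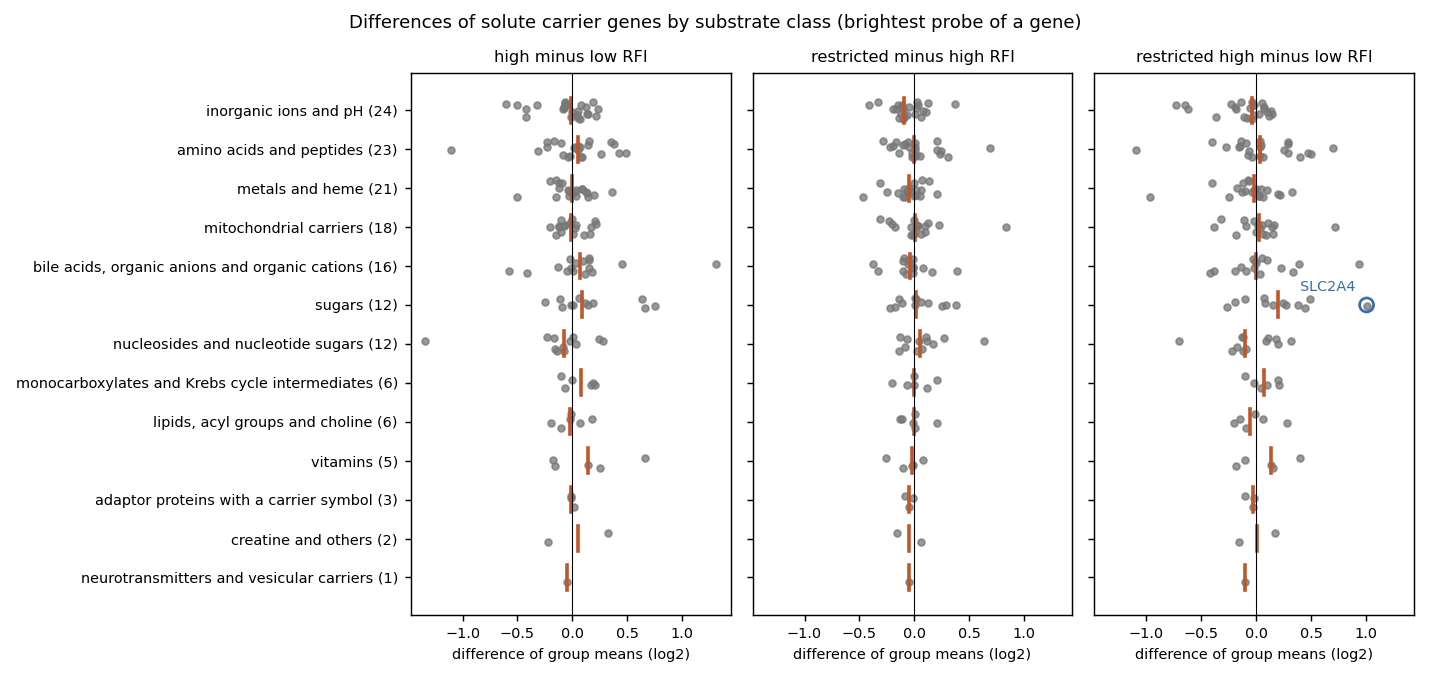
Differences of group means (log2, horizontal axis) of solute carrier genes by substrate class, in 3 comparisons; each grey point is a gene by its brightest probe, the number of genes stands in brackets, and the orange line is the class median. Most genes lie near 0 in every class, and the circled point is the gene past the threshold, SLC2A4, at 1.01.

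The probe that passed belonged to SLC2A4. Probe A_72_P440846 had levels from -0.26 through a median of 0.45 to 1.09 in low RFI pigs, from 0.24 through 1.25 to 1.72 in high RFI pigs, and from 0.95 through 1.37 to 1.97 in restricted pigs. Of the 8 restricted pigs 7 lay above every low RFI pig, as did 6 of the 8 high RFI pigs, so the groups overlapped in a few pigs. Restricted pigs were 1.01 above low RFI pigs (SE 0.20, 2.01-fold, limma adjusted p = 0.026). Both high RFI groups together were 0.88 above low RFI (SE 0.17, limma adjusted p = 0.017). The difference of 0.75 between high and low RFI at free intake did not pass with all pigs (limma adjusted p = 0.15). It passed without high RFI pig 4 (0.88, limma adjusted p = 0.046) and in no other alternative. The difference of 0.26 between feeding levels did not pass (limma adjusted p = 0.96). On the separate scan days the restricted minus low difference was 0.76 and 1.24, and neither passed. The call was lost with normexp background correction (0.88, adjusted p = 0.055), with slide as a block (0.98, adjusted p = 0.062), without slide 3 (0.94, adjusted p = 0.13), and without any of low RFI pigs 3, 7 and 8 or restricted pigs 2 and 7 (adjusted p up to 0.067).

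The other SLC2A4 probes did not show this difference. A second probe ran from -3.33 through -3.11 to -2.79 in low RFI, from -4.19 through -3.01 to -2.11 in high RFI and from -3.44 through -3.0 to -2.68 in restricted pigs. Its restricted minus low difference was 0.07 (SE 0.20, limma adjusted p = 0.92). Probe A_72_P448551 gave 0.09 (SE 0.15, limma adjusted p = 0.84) in that comparison and 0.40 (SE 0.15) in high minus low RFI (limma adjusted p = 0.39). All 3 were well above background on all 24 arrays, so the probes of this gene disagree over the only call. The probes' restricted minus low differences were spread over 0.94, the widest of the 68 solute carrier genes with 2 or more kept probes. Skeletal muscle markers, of which 4 of 6 were kept, had mean levels of -1.15 to -0.49 in low RFI, -1.37 to -0.56 in high RFI and -1.47 to -0.57 in restricted pigs, with MYH1 and MYL1 not kept. Adipocyte markers, 4 of 5 kept with PLIN1 not kept, ranged from -1.38 to -0.84, -1.59 to -1.02 and -1.52 to -1.03. Neither list had a member past the threshold, and all 8 kept genes lay below 0 in restricted high minus low RFI.

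**Figure D2:**
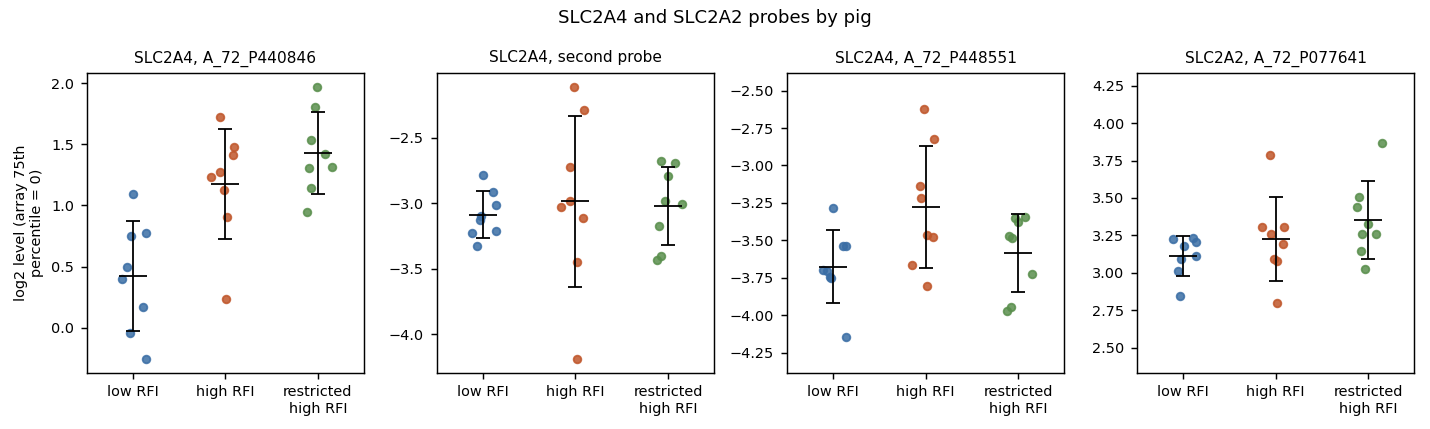
Levels of the 3 SLC2A4 probes and of the SLC2A2 probe (log2, array 75th percentile set to 0; each panel has its own axis), with a point per pig, 8 pigs a group; black bars are the mean and SD. Restricted and low RFI pigs are apart by 1.01 on the first probe and by 0.07 and 0.09 on the others.

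Among the other sugar carriers, SLC2A2, which encodes GLUT2, the main glucose carrier of the hepatocyte, ran from 2.85 through 3.15 to 3.23 in low RFI, from 2.80 through 3.23 to 3.78 in high RFI and from 3.03 through 3.29 to 3.87 in restricted pigs. The groups overlapped, and the differences of 0.11, 0.13 and 0.24 in the 3 comparisons did not pass (limma adjusted p = 0.39 for the last). The fructose carrier SLC2A5 gave 0.06, 0.01 and 0.07. SLC5A1, the sodium-coupled glucose carrier SGLT1 of the intestine, had 5 kept probes. All 5 were above 0 in restricted minus high, from 0.03 to 0.38, and none passed. The brightest, A_72_P444300, gave 0.38 in restricted high minus low RFI too, and 0.19 there with normexp background correction. The sodium-coupled inositol carrier SLC5A11 and SLC45A2, a carrier of the melanosome membrane named here from the description, had high minus low differences of 0.67 and 0.63 that did not pass (limma adjusted p = 0.43 and 0.36).

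A bile acid carrier had the largest high minus low difference above 0 of the kept probes, which did not pass. SLC51B encodes the beta subunit of the organic solute transporter, which exports bile acids across the basolateral membrane. Its probe A_72_P581457 ran from -1.83 through -0.98 to -0.76 in low RFI, from -1.65 through 0.48 to 1.09 in high RFI and from -1.16 through -0.36 to 0.97 in restricted pigs. In high RFI, 7 of 8 pigs lay above every low RFI pig, and high RFI pig 4 was the exception. The difference was 1.31 (SE 0.37, 2.48-fold, limma adjusted p = 0.18) in high minus low and 0.94 (SE 0.37, limma adjusted p = 0.27) in restricted high minus low RFI. The second probe, which shares no run of more than 5 bases with the first, gave 1.41 and 0.99, with 7 of 8 high RFI pigs again above every low RFI pig. On the separate scan days the high minus low difference of A_72_P581457 was 1.16 and 1.41, and the restricted high minus low difference 0.60 and 1.35. Without high RFI pig 4, the difference of both high RFI groups from low RFI was 1.25 and passed (limma adjusted p = 0.042). With all pigs it was 1.12 (limma adjusted p = 0.10), and it passed in no other alternative.

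No sinusoidal uptake carrier of the same class passed. SLC10A1, the sodium-coupled bile acid importer NTCP, ran from 5.87 through 6.17 to 6.53 in low RFI, from 5.73 through 6.18 to 6.50 in high RFI and from 5.71 through 5.99 to 6.56 in restricted pigs. Its differences were 0.01, -0.10 and -0.10, and its dimmer probe, named from the description, gave 0.13, 0.14 and 0.27. SLC22A7, an organic anion importer, gave 0.15, -0.10 and 0.05. SLCO2B1, another organic anion importer, named here from the description, gave -0.05, -0.33 and -0.39 (limma adjusted p = 0.44 for the last, which was -0.70 on the first scan day and -0.25 on the second). SLCO5A1 gave 0.45 in high minus low, but its level was well above background on 19 of 24 arrays and the difference was -0.12 with normexp background correction.

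Of the nuclear receptors and other regulators of carriers, 16 of 20 listed genes were kept and none passed in any comparison. NR0B2, the bile acid-responsive repressor SHP, had the lowest p among them, at -1.31 in high minus low RFI (limma adjusted p = 0.29) and 0.97 in restricted minus high. NR1H4, the bile acid receptor FXR, gave -0.04 and 0.19. Of 20 listed ABC transporters, the pumps that export bile acids, phospholipid and conjugates, 8 were kept and none passed. ABCB11, the canalicular bile salt pump, gave 0.06 in high minus low RFI, and ABCC2, the canalicular conjugate pump, gave -0.56 (limma adjusted p = 0.23). Of 24 partner subunits, channels and pumps, 18 were kept and none passed, and their median difference in high minus low RFI was 0.12 with 12 above 0. Cholangiocyte markers, 5 of 8 kept, had mean levels of -1.86 to -0.90 in low, -1.93 to -0.89 in high and -1.76 to -0.57 in restricted pigs, and their part in the SLC51B values was not tested.

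SLC7A9 varied most between pigs of a group among the amino acid carriers, with a within-group SD of 0.89 on its brighter probe. Probe A_72_P088796 ran from -0.42 through -0.09 to 0.40 in 7 low RFI pigs, the eighth spot having been left out as an outlier. It ran from -2.67 through -1.16 to 0.07 in high RFI and from -2.86 through -0.83 to -0.07 in restricted pigs. The second probe, A_72_P538288, ran from -2.19 through -1.89 to -1.55 in low RFI, from -4.08 through -2.99 to -1.90 in high RFI and from -4.66 through -2.67 to -1.96 in restricted pigs. Low RFI pigs were therefore close together, and both high-line groups reached from the low RFI level to far below it. High minus low differences were -1.11 (SE 0.43) and -1.18 (SE 0.38), and restricted high minus low differences were -1.10 (SE 0.43) and -1.14 (SE 0.38), none of which passed (limma adjusted p = 0.41, 0.27, 0.28 and 0.20). With normexp background correction the restricted high minus low difference of the first probe was -0.73. The restricted minus high differences were 0.01 and 0.04. On the separate scan days the high minus low difference of the first probe was -0.93 and -1.27.

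The 8 pigs with the lowest SLC7A9 level were the same pigs on both probes. They were high RFI pigs 3, 4, 5 and 7 and restricted pigs 3, 4, 7 and 8, that is 4 of 8 in each high-line group. They included 0 low RFI pigs, but 1 low RFI spot was left out on the first probe, so 23 pigs were ranked there. On the first probe these 8 reached up to -1.14 and the next pig stood at -0.65. On the second they reached up to -3.01 and the next pig stood at -2.48. The cut at 8 pigs was chosen, and more pigs lay below every measured low RFI pig. These were 6 high RFI and 5 restricted pigs on the first probe, and 7 and 5 on the second. SLC3A1, the heavy chain that pairs with SLC7A9, had 4 kept probes, with high minus low differences from 0.05 to 0.21 and restricted minus high differences from -0.40 to -0.19, none past the threshold.

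**Figure D3:**
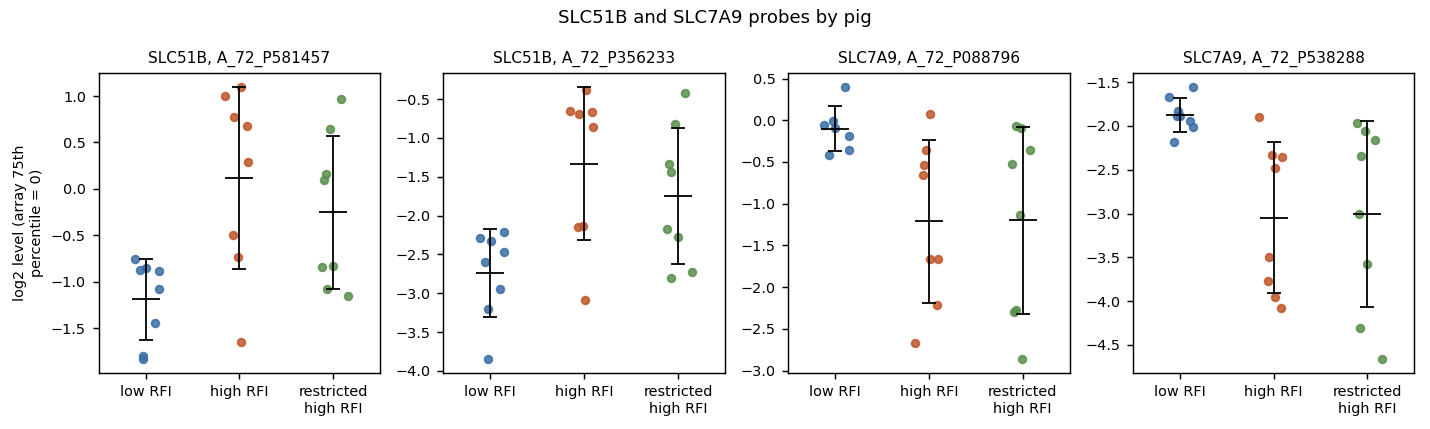
Levels of 2 SLC51B and 2 SLC7A9 probes (log2, array 75th percentile set to 0; each panel has its own axis), with a point per pig and the mean and SD in black. Of the 8 high RFI pigs 7 lie above every low RFI pig for SLC51B. For SLC7A9, 6 high RFI and 5 restricted pigs lie below every low RFI pig on the first probe, and 7 and 5 on the second.

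SLC38A2, the sodium-coupled neutral amino acid carrier SNAT2, was among the lowest p-values of the feeding comparison. It was named here from the probe's description only. Its level ran from -0.06 through 0.71 to 1.06 in low RFI, from -0.06 through 0.73 to 1.34 in high RFI and from 0.63 through 1.03 to 2.51 in restricted pigs, and the groups overlapped. The restricted minus high difference of 0.69 (SE 0.25) did not pass (limma adjusted p = 0.85). Restricted pigs 7 and 8 stood at 2.35 and 2.51, above all others, and without them the difference was 0.32. SLC38A6, an orphan member of the same family and also named from the description only, had the lowest p of that comparison, with a difference of 0.21 (SE 0.07, limma adjusted p = 0.74). It ran from -0.98 through -0.81 to -0.64 in low RFI, from -0.97 through -0.73 to -0.67 in high RFI and from -0.77 through -0.51 to -0.41 in restricted pigs, 7 of which lay above every high RFI pig. Its other kept probe gave -0.06. The restricted high minus low difference of 0.26 was 0.14 with normexp background correction.

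Other amino acid carriers had high minus low differences of one sign over all their probes. SLC1A1, a glutamate and aspartate carrier, had 4 kept probes with high minus low differences from 0.49 to 0.72. The brightest went from 0.49 to 0.29 with normexp background correction. SLC3A2, the heavy chain of the large neutral amino acid carriers, had 3, from 0.34 to 0.41. None passed, and the probes A_72_P133051 and A_72_P339943 of SLC3A2 share 44 bases, so they are not independent. The hepatocyte carriers SLC7A2 and SLC38A3 gave -0.02 and 0.14 in that comparison. All 3 SLC38A3 probes are also named SLC38A5 in the array annotation.

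Ion and metal carriers accounted for the next lowest p-values in restricted high minus low RFI. SLC26A11 probe A_72_P286019 ran from -0.39 through 0.10 to 0.48 in low RFI, from -0.72 through -0.50 to 0.12 in high RFI and from -0.91 through -0.62 to -0.16 in restricted pigs. Of the restricted pigs 7 of 8, and of the high RFI pigs 5 of 8, lay below every low RFI pig. The difference of -0.62 (SE 0.14) just missed the threshold (limma adjusted p = 0.066), as did that of both high RFI groups from low RFI, at -0.52 (SE 0.12, limma adjusted p = 0.052). The latter passed with median scaling (-0.52, limma adjusted p = 0.0499) and with array weights (-0.55, adjusted p = 0.032). It also passed with only probes well above background on all arrays (limma adjusted p = 0.048). Both passed without low RFI pig 5, low RFI pig 6 or restricted pig 6 (adjusted p from 0.034 to 0.0498), and the latter also without high RFI pig 2 (adjusted p = 0.033). The second probe gave -0.53 and -0.45.

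SLC12A4, the potassium and chloride cotransporter KCC1, ran from 0.35 through 0.60 to 1.31 in low RFI, from -0.22 through 0.42 to 0.88 in high RFI and from -0.74 through -0.01 to 0.48 in restricted pigs. In restricted pigs 6 of 8 lay below every low RFI pig. The restricted high minus low difference was -0.73 (SE 0.18, limma adjusted p = 0.080). High minus low RFI, where line and feed intake both differ, gave -0.32 and restricted minus high gave -0.41, and neither difference passed. SLC30A10, a manganese exporter named here from the description only, ran from 0.26 through 1.16 to 1.52, from -0.30 through 0.66 to 1.12 and from -1.17 through 0.21 to 0.53 in the 3 groups in the same order. Its restricted high minus low difference was -0.96 (SE 0.24, limma adjusted p = 0.082), with -0.50 in high minus low and -0.46 in restricted minus high. On the separate scan days the restricted high minus low difference was -0.61 and -0.61 for SLC26A11, -0.52 and -0.95 for SLC12A4, and -0.77 and -1.28 for SLC30A10. Without restricted pig 1, SLC12A4 passed at -0.81 (limma adjusted p = 0.039), and without low RFI pig 2, SLC30A10 passed at -1.08 (limma adjusted p = 0.0496). Neither passed with any other pig left out or in any other alternative.

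Markers of stellate cells and fibroblasts, 7 of 11 kept, and of pancreatic acinar cells, 4 of 12 kept, lay mostly below 0 in the same comparison. This was not particular to them, as 0 of 8 endothelial, 0 of 3 neutrophil, 0 of 2 erythroid and 3 of 8 hepatocyte markers lay above 0. By contrast, 4 of 5 Kupffer and macrophage, 4 of 5 cholangiocyte and 5 of 7 T and NK markers lay above 0. The mean level of the stellate and fibroblast markers lay between 0.95 and 1.62 in low RFI, between 0.36 and 1.23 in high RFI and between 0.34 and 1.14 in restricted pigs. In restricted high minus low RFI 4 of the 7 lay below 0 at an unadjusted p below 0.05, among them COL1A2 at -0.84 and RGS5 at -1.29, 1 (LUM) lay above 0, and none passed. With both high RFI groups set against low RFI, RGS5 fell by 1.19 (limma adjusted p = 0.032), and the other 6 did not pass. The acinar markers' mean level lay between -1.25 and 0.39 in low RFI, between -1.82 and -0.25 in high RFI and between -1.73 and -0.64 in restricted pigs, with CPB1, CELA1 and PNLIP not kept. In restricted high minus low RFI their median was -1.01, with CPA1 at -1.81 (limma adjusted p = 0.082) and CELA2A at -1.72 (limma adjusted p = 0.33), AMY2 lay above 0, and none passed. The part of these cells in the SLC26A11, SLC12A4 and SLC30A10 values was not tested.

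**Figure D4:**
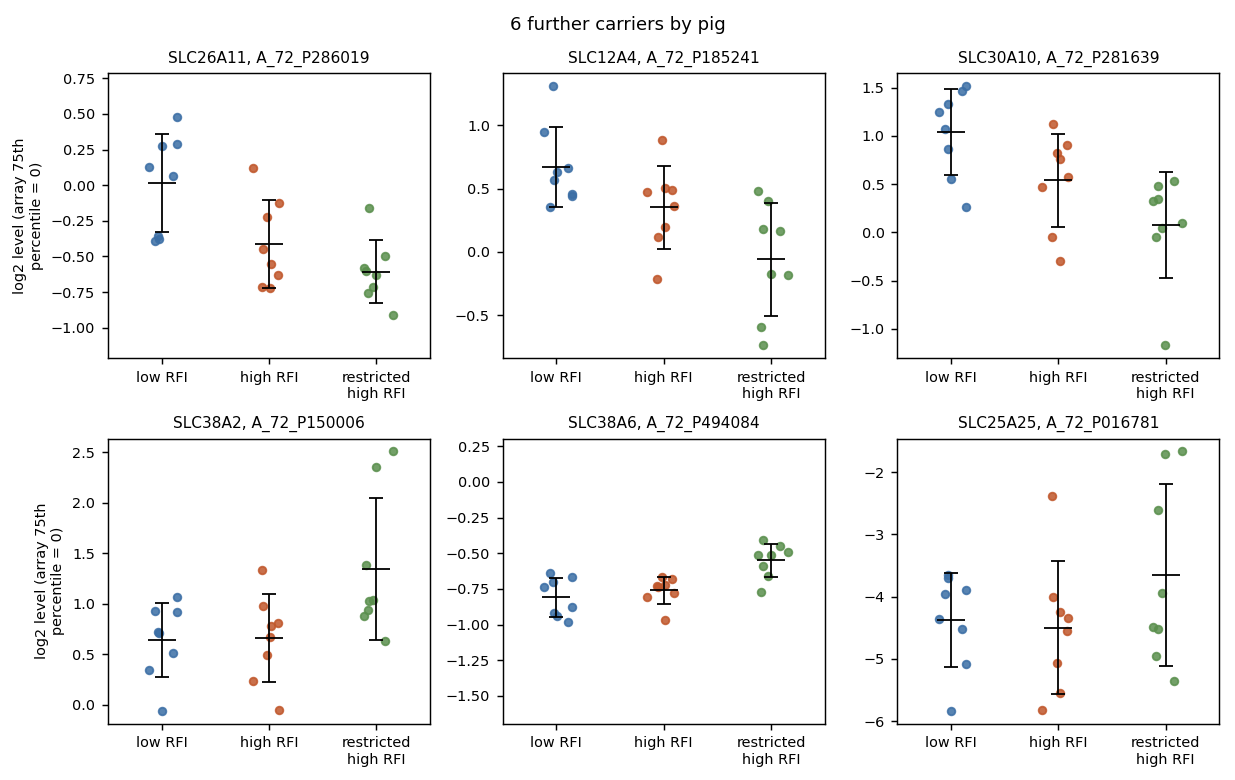
Levels of SLC26A11, SLC12A4, SLC30A10, SLC38A2, SLC38A6 and SLC25A25 (log2, array 75th percentile set to 0; each panel has its own axis), with a point per pig, 8 pigs a group, and the mean and SD in black. Restricted pigs average 0.62, 0.73 and 0.96 below low RFI pigs in the upper row, and SLC38A2 and SLC25A25 have 2 restricted pigs above all others.

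The zinc and manganese importer SLC39A14 gave different results by probe. Probe A_72_P709626 ran from -0.95 through -0.44 to 0.58 in low RFI, from -0.55 through 0.27 to 0.57 in high RFI and from -0.35 through 0.32 to 1.15 in restricted pigs, a restricted high minus low difference of 0.71 (SE 0.22, limma adjusted p = 0.16). Probe A_72_P370828 gave 0.10 (SE 0.12) there. The brighter probe of the zinc importer SLC39A5 had a small within-group SD, of 0.10, and a high minus low difference of 0.14 that did not pass. Of the 21 metal carriers kept, 13 lay below 0 in restricted high minus low RFI and none passed.

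Mitochondrial carriers had 18 of 22 genes kept and none past the threshold. SLC25A6 and SLC25A5 encode adenine nucleotide translocases, which exchange ADP for ATP across the inner membrane. All 6 SLC25A6 probes were below 0 in the comparisons between pairs of groups. The brightest, A_72_P655352, went from -0.18 to -0.01 in restricted high minus low RFI with normexp background correction, and the other 5 were not examined with it. In restricted high minus low RFI they differed by -0.34 to -0.18 and the lowest limma adjusted p was 0.11, for A_72_P539354, which ran from 3.71 through 4.0 to 4.08 in low RFI, from 3.47 through 3.76 to 4.14 in high RFI and from 3.43 through 3.54 to 3.95 in restricted pigs. The 6 SLC25A5 probes lay between -0.15 and 0.07 there. The 10 probes of the phosphate carrier SLC25A3 lay between -0.05 and 0.10. Probes of each gene were read in the same pigs on the same arrays, and some share bases, so their agreement is not independent evidence.

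**Figure D5:**
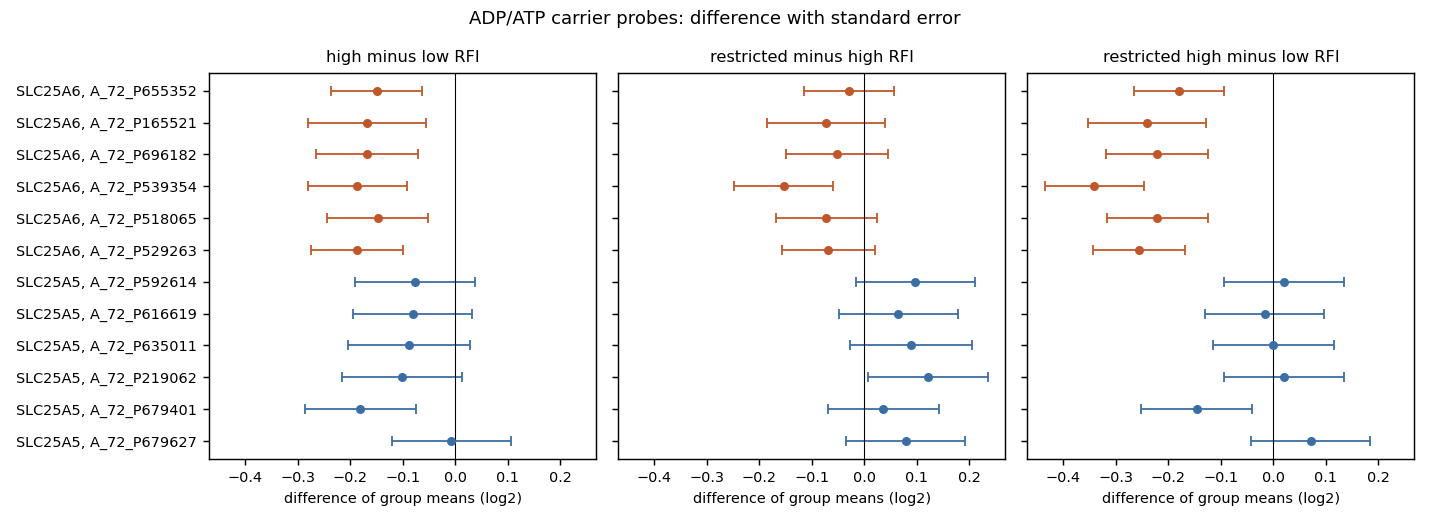
Differences of group means (log2, horizontal axis) with standard error for the 6 probes each of SLC25A6 (orange) and SLC25A5 (blue), in 3 comparisons. SLC25A6 probes lie at -0.34 to -0.18 in restricted high minus low RFI, and SLC25A5 probes at -0.15 to 0.07.

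Carriers of lactate and fatty acids held no call. SLC16A1, the lactate and pyruvate carrier MCT1, had 7 kept probes, with restricted high minus low differences from 0.08 to 0.49 and restricted minus high differences from 0.01 to 0.22. The acyl-CoA synthetase and fatty acid carrier SLC27A2 gave 0.07, 0.21 and 0.28 in the 3 comparisons by its brightest probe, and its other 2 probes gave -0.01 and 0.19 in the last. None of the 6 lipid and choline carriers and none of the 6 monocarboxylate carriers kept passed in any comparison.

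Among carriers of nucleosides and nucleotide sugars, SLC35F3, described as a thiamine carrier, had the largest high minus low difference below 0. Probe A_72_P181831 ran from -4.70 through -2.91 to -1.47 in low RFI, from -5.05 through -4.39 to -2.82 in high RFI and from -4.79 through -3.17 to -2.49 in restricted pigs, and the groups overlapped. The difference of -1.34 (SE 0.41) did not pass (limma adjusted p = 0.23), and each scan day by itself gave -0.85 and -1.55. With normexp background correction it was -0.57, and the part of the added constant in this change was not tested. The gene's other kept probe gave -0.05. The Golgi carriers SLC35C1 and SLC35C2 gave -0.23 and 0.28 (limma adjusted p = 0.34 and 0.39). The former, named from the description, was -0.15 with normexp background correction. The vitamin carrier family member SLC46A2 gave 0.66 in high minus low (limma adjusted p = 0.23) and 0.0063 with normexp background correction. The creatine carrier SLC6A8 gave 0.32 (limma adjusted p = 0.39).

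Over the family, the probes of a gene often disagreed in sign, and no such count was made for other genes. Of the 68 genes with 2 or more kept probes, 43 had all probes of the same sign in high minus low, 45 in restricted minus high and 38 in restricted high minus low RFI. The median spread, the range over the kept probes of a gene, was 0.12, 0.11 and 0.15. The median size of the difference was 0.12, 0.096 and 0.12 over all 149 genes by their brightest probe, which is another measure on a larger set of genes. Of the pairs of probes of a gene, kept or not, 24, in 14 genes, shared 20 or more bases in a run, and 3 pairs were identical.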

How the data were processed

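Liver RNA of 24 pigs was measured on 1-colour Agilent arrays. The deposited intensity values used are the scanner's processed signal; per the file headers they were read by Agilent Feature Extraction 10.7.3.1, which had subtracted a background. The mean spot and local background intensity, also deposited, served only for the normexp alternative. A constant was added to the corrected signal there, which by itself shrinks the log2 differences of dim probes. The part of this constant, and of the different starting intensities, in the values that moved was not tested. A table of the authors' own log2 values, 27564 features long, equalled log2 processed signal minus the array median; it served as an alternative. The submitters' processing notes name R 2.10.0.

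Control spots and 1055 outlier spots were left out, log2 values were centred on the array's 75th percentile and spots of a probe were averaged. No spot was saturated. Probes were kept if well above background on 6 or more of 8 arrays of a group. Of the 358 solute carrier probes, 187 were named through a RefSeq accession, 58 through a symbol, 21 through a gene identifier, 3 through a synonym and 89 from the description, with RefSeq names of Sscrofa11.1; 8 carried conflicting names. Positions in the genome were not analysed here, and some items are not reported here.

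Groups were compared with limma 3.58.1 in R 4.3.3 (lmFit, eBayes), group as the only factor, all 24 arrays in the fit, with Benjamini-Hochberg adjustment over 29665 probes. The script was tested on simulated data. Tables were handled in Python 3.11.15, and plots drawn with matplotlib 3.10.9. The number of arrays limits the precision.

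Named genes were those past the threshold, the 10 lowest p-values of a comparison, and a list of textbook liver carriers (53 of 91 kept), by their brightest probe; other probes were added where they disagreed in sign, and SLC5A11, SLC25A25, SLC39A5, the undetected carriers and the additional probes of SLC51B, SLC7A9, SLC26A11, SLC1A1, SLC3A1, SLC3A2, SLC16A1, SLC39A14, SLC5A1, SLC27A2 and SLC25A family genes after their values were seen. The members and lists were chosen with earlier results of these data known. Alternatives covered background, scaling, filter, slide, scan day, pig number, array weights and left-out pigs; keeping outlier spots was added after seeing the data.

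Whether pig numbers pair the pigs was checked. Same-numbered pigs' deviations correlated from -0.19 to 0.32 between low and high RFI and from -0.17 to 0.12 between low RFI and restricted pigs. Between high RFI and restricted pigs they correlated from -0.0375 to 0.42, and 4 of 8 pigs correlated best with their own number. The labels give no pairing, and the numbers were not taken as pairs in the main fit. Pig number served as a block in an alternative.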

Additional observations from a re-analysis of the deposited data

Results flagged for a closer look

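The kept carriers chosen by the naming rule were checked, by the probe that rule picks, for a pig far from the others of its group (Dixon's test at its 95% critical value). SLC25A25, SLC5A11 and SLC39A5, named after their values were seen, were not checked. Of 207 groups tested, 14 (6.76%) held such a pig, and chance gives about 1 in 20. High RFI pig 7 accounted for 5 of them, as the lowest of its group for the nucleotide sugar carrier SLC35D1 (-0.20), the iron carrier SLC11A1 (-1.15), the mitochondrial iron carrier SLC25A37 (7.0) and the nucleoside carrier SLC29A1 (3.39), and as the highest for the sodium, potassium and chloride cotransporter SLC12A2 (3.68). In the restricted group, pig 7 was lowest for SLC30A10 (-1.17), pig 2 was lowest for SLC46A2 (-4.51), pig 3 was highest for SLC24A2 (-0.74), and pig 8 was lowest for the choline carrier SLC44A1 (-3.26) and for the adaptor SLC9A3R1 (3.80). High RFI pig 1 was lowest for SLC38A6 (-0.97). In low RFI, pig 8 was lowest for SLC35C2 (1.17) and highest for SLC6A12 (0.15), and pig 5 was lowest for SLC38A3 (2.86).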

How the results depend on the processing

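The 53 differences of named carriers with an unadjusted p below 0.05 changed sign in 4 of 923 values over the alternatives, all with normexp background correction: SLCO5A1 in high minus low (-0.12), restricted high minus low (-0.22) and both high RFI groups minus low (-0.17), and SLC46A2 in the last (-0.072). Of the 223 other differences, 132 changed sign in some alternative. The differences were split by their p on these same arrays, so the contrast between the sets does not test how robust they are.

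Solute carrier calls depended on the setting. In restricted high minus low RFI the count went from 1 to 0 with normexp background, slide as a block, either scan day, without slide 3, and without low RFI or restricted pigs 7 and 8. For both high RFI groups it was 0 on either scan day, without slide 3 and without low RFI pigs 7 and 8, and 2 with median scaling, the filter on all arrays and array weights. The F test count was 0 with normexp background, quantile normalisation, no filter, slide or scan day as a block, either scan day, without slide 3, and without the pairs of high, low or restricted pigs left out. The median difference moved to -0.035 in high minus low and -0.042 for both high RFI groups with normexp background.

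The share of calls above 0 over all probes moved with normexp background, from 24 of 48 to 4 of 5 in high minus low and from 37 of 68 to 10 of 13 in restricted high minus low RFI. Over all probes, counts are given in the order high minus low, restricted high minus low, both high RFI groups and F test, against 48, 68, 164 and 63. They were 5, 13, 39 and 7 with normexp background, 5, 36, 22 and 9 on scan day 1, 10, 10, 15 and 11 on scan day 2, and 28, 24, 90 and 29 without slide 3. Without a filter, high minus low gave 28, both groups 73 and the F test 37. Array weights gave 91 in high minus low, 282 for both groups and 152 in the F test, and only the groups compared gave 32 in restricted high minus low RFI. Without low RFI pigs 7 and 8 the last 3 counts were 31, 62 and 29, and without restricted pigs 7 and 8 they were 25, 103 and 40. Restricted minus high gave 1 on scan day 2 and 2 with array weights. With pig number as a block, 103 probes passed in restricted high minus low RFI, and the solute carrier counts did not change. Same-numbered pigs correlated above 0.1 in 5 of 8 pairs between high and restricted pigs, 1 between low and high and 2 between low and restricted, so not in every pair. Of 8 pigs, 4 correlated best with their own number between high and restricted pigs, 1 between low and high, and 0 between low and restricted, a hint from the data for the first pair of groups and not from the design.

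Leaving out each pig in turn, solute carrier counts ranged from 0 to 1 in high minus low, 0 to 0 in restricted minus high, 0 to 2 in restricted high minus low, 1 to 3 for both groups and 0 to 1 in the F test. Counts over all probes ranged from 27 to 57, 0 to 1, 30 to 145, 89 to 219 and 36 to 90. Medians ranged from -0.0041 to 0.022, -0.034 to -0.0039, -0.018 to 0.0037 and, for both groups, -0.0065 to 0.023. Keeping outlier spots left these counts within 1.5 times.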

Other observations

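Some carriers of amino acids and of the mitochondrial membrane shared their highest pigs. These were looked at after their values were seen. SLC25A25, an ATP-magnesium and phosphate carrier, had the widest within-group SD of the kept solute carrier probes, at 1.13. This was wider than that of 99.1% of all kept probes, but the probe was well above background on only 20 of 24 arrays. Its level ran from -5.83 to -3.66 in low RFI, from -5.82 to -2.38 in high RFI and from -5.36 to -1.67 in restricted pigs, and its restricted minus high difference of 0.84 (SE 0.53, limma adjusted p = 0.95) did not pass. Restricted pigs 8 and 7 ranked first and second of 24 for SLC25A25, for SLC38A2 and for the neutral amino acid carrier SLC38A1, and 1 and 3 for SLC38A4. High RFI pig 7 ranked 3, 4, 4 and 2 for these genes, and restricted pig 4 ranked 4, 9, 3 and 5. For the cationic amino acid carrier SLC7A2, restricted pigs 7, 4 and 8 ranked 1, 3 and 6 and high RFI pig 7 ranked 9. No test was made of this pattern.

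At the other end, the least variable kept probes of the family belonged to SLC25A3 and SLC39A5, both with a within-group SD of 0.092 on 1 probe, smaller than that of more than 99% of the kept probes.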
